A study of Mus musculus with 7 samples.

Results

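The SR splicing factors Srsf1, Srsf2, Srsf3, Srsf5, Srsf6, Srsf7 and Srsf11, the related speckle protein Son, and the CDC-like kinases Clk1 and Clk4 were followed in aged mouse skin after topical ABT-263. These 10 genes were taken by name, with earlier results of these data known, as a group whose transcripts often keep introns in the nucleus. All 10 were found among the 55450 genes of the count table, and all 10 were expressed highly enough to be tested. At an adjusted p under 0.05, 3 of them were lower after ABT-263 (Srsf11, Son and Clk4), and none was higher. Of all genes tested, 11.7% were lower and 12.4% higher at that threshold. Only Srsf11 passed it whichever mouse was left out.

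SR proteins bind exons through RNA recognition motifs and recruit the spliceosome through a tail of alternating arginine and serine residues. CLK kinases phosphorylate that tail in the nucleus, which releases SR proteins from nuclear speckles to sites of splicing, whereas SRPK kinases act mainly in the cytoplasm and promote import. Many genes of this group limit their own output. Some include a short exon with a premature stop codon, so that the transcript is degraded by nonsense-mediated decay, and others, Clk1 and Clk4 among them, hold a pool of incompletely spliced RNA in the nucleus.

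Dorsal skin came from wild type male C57BL/6 mice aged 24 months. In 3 mice (476, 477 and 478) it was treated topically with 5 μM ABT-263, and in 4 mice (480 to 483) with DMSO alone, for 5 days in each case. ABT-263, also called navitoclax, inhibits anti-apoptotic proteins of the Bcl-2 family and is used to remove senescent cells. All mice, controls included, underwent clipping, chemical hair removal, cleansing with ethanol and a semi-occlusive dressing, so both groups are skin handled in this way, and skin without vehicle or dressing was not analysed here. Each library was made from the whole skin of 1 mouse. Homogenized skin mixes many cell types, and less of a transcript per cell cannot be told apart from fewer cells that carry it.

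Read pairs counted per library ranged from 20344364 to 26824123 after DMSO and from 27325963 to 43562330 after ABT-263, so depth was higher throughout the latter group. Each gene of the group had between 885 and 9110 read pairs per library. Counts were lowest for Clk4, at 885 to 1459 read pairs. Markers of the labelled tissue were abundant, with Krt14 of basal keratinocytes at 12486 ± 5940.0 CPM (counts scaled to a common library size by TMM; SD, n = 4) and Col1a1 of fibroblasts at 2157 ± 440 CPM (SD, n = 4) after DMSO. Groups were compared with edgeR's quasi-likelihood test over 17959 genes, and a gene was called at an adjusted p under 0.05. That call was reached by 24.2% of all genes tested, 12.4% higher and 11.7% lower after ABT-263. Leaving out 1 mouse at a time gave 1735 (without ABT-263-treated mouse 478) to 4169 called genes, with 1824 without DMSO-treated mouse 482, 2063 without 483, 2837 without 481 and 2228 without ABT-263-treated mouse 476.

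The stretches below show annotated places where transcripts of these genes are spliced in an unproductive way. Exon 4 of Clk1 and exon 4 of Clk4 lie between introns 3 and 4, both of which GENCODE keeps in a retained-intron transcript of the gene. Each exon is 91 bases long, which is not a multiple of 3, so skipping it shifts the reading frame. Capitals mark the exon and lower case marks 20 bases of each flanking intron, read 5′ to 3′ on the strand of the gene (GRCm38). Clk1 lies at chr1:58420101-58420231 on the minus strand and Clk4 at chr11:51273058-51273188 on the plus strand.

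Clk1 exon 4: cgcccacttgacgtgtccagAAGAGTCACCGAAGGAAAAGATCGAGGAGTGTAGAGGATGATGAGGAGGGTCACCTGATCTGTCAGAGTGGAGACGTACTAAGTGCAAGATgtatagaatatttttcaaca
Clk4 exon 4: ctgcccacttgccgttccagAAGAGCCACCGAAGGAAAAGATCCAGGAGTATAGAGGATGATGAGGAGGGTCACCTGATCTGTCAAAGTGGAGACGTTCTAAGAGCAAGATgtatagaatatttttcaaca

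The exons share 85 of 91 bases (93.4%), so the paralogs are alike at this exon.

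Exons that end the reading frame early are annotated in Srsf3, Srsf6, Srsf7 and Srsf11, inside an intron of the principal transcript. The 30 bases around the stop codon are shown for 1 exon of each gene, with the stop codon in capitals. The exon of Srsf3 is 456 bases long and its window lies at chr17:29039472-29039501 (plus strand). That of Srsf6 is 268 bases long, with the window at chr2:162932951-162932980 (plus strand). That of Srsf7 is 460 bases long, with the window at chr17:80205040-80205069 (minus strand). Srsf11 has more than 1 exon of this kind, and the window shown lies at chr3:158024195-158024224 (minus strand).

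Srsf3: tctcaccaccctcTGAatctgcattagcca
Srsf6: agccttttgccatTAGacgcagggtgatgg
Srsf7: gagtcagtcgcctTGAttcagaatgtcacg
Srsf11: ccctggttcagccTGAactatataccaggc

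The deposited values are 1 count per gene, so reads from these exons and from retained introns were not separated from reads of the mature mRNA. A change below is a change of the summed count of a gene.

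**Figure D1:**
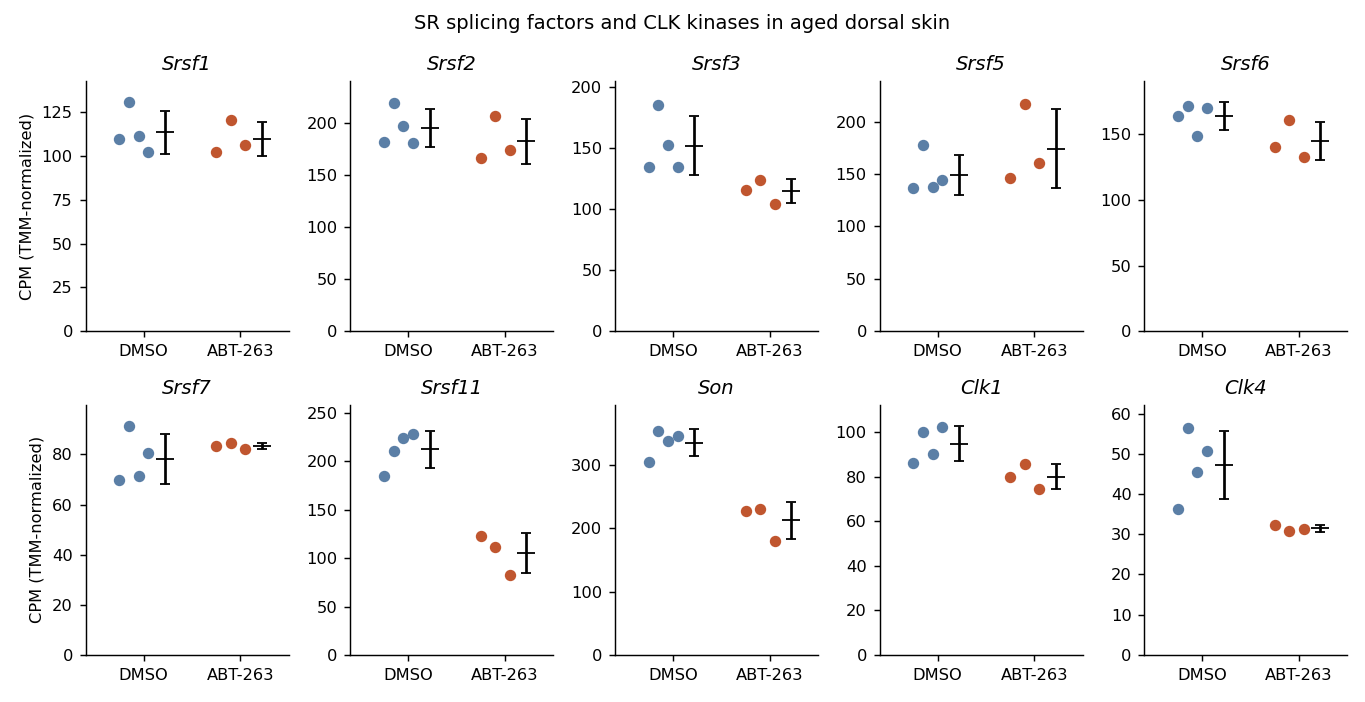
Expression of the 10 genes in each mouse, in CPM normalized by TMM on linear axes that start at 0. Points are single mice (blue, 4 mice after DMSO; orange, 3 mice after ABT-263), and the bar beside them gives the mean and SD; for Srsf11, Son, Clk4, Srsf3 and Clk1 all orange points lie below all blue points.

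Srsf11 showed the largest difference of the group. It encodes an SR-related protein that contacts U2AF, and lies at chr3:158010473-158036639 on the minus strand of GRCm38. After DMSO, mice 480 to 483 had 185, 211, 225 and 229 CPM. After ABT-263, mice 476, 477 and 478 had 123, 111 and 82.1 CPM. The groups were far apart, with mouse 478 the lowest of all, and the mean after ABT-263 was 49.6% of that after DMSO (105 ± 21.1 CPM, SD, n = 3, against 212 ± 19.5 CPM, SD, n = 4). The log2 fold change from edgeR was -1.01, with a standard error of 0.17 and an adjusted p of 0.00916. Srsf11 kept its call whichever mouse was left out, with log2 fold changes between -1.13 and -0.85.

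Son, a large RS-domain protein that helps to build nuclear speckles and supports splicing of weak introns, was the most abundant of the 10 transcripts by read count (chr16:91647506-91679221, plus strand). It stood at 304, 353, 337 and 346 CPM in mice 480 to 483 after DMSO. After ABT-263 it stood at 228, 230 and 179 CPM in mice 476, 477 and 478. No mouse of one group reached the other, and mouse 478 was again the lowest. Mean levels of Son were 335 ± 21.8 CPM after DMSO (SD, n = 4) and 212 ± 28.5 CPM after ABT-263 (SD, n = 3), a decrease with a log2 fold change in edgeR of -0.66, a standard error of 0.15 and an adjusted p of 0.0195. The call was lost without DMSO-treated mouse 482 (edgeR, adjusted p = 0.0575) or 483 (0.0556) and without ABT-263-treated mouse 478 (0.0644), while the log2 fold change stayed between -0.71 and -0.55.

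Clk4 (chr11:51261730-51281766, plus strand) was the least abundant of the group. Its values after DMSO were 36.3, 56.3, 45.4 and 50.8 CPM in mice 480 to 483. After ABT-263 they were 32.4, 30.8 and 31.3 CPM in mice 476, 477 and 478. The ABT-263-treated mice lay close together and below the lowest DMSO-treated mouse, 480, which came within a few CPM of them. The log2 fold change of Clk4 in edgeR was -0.58, with a standard error of 0.16 and an adjusted p of 0.0334. The call depended on most of the mice, since it held without DMSO-treated mouse 480 (edgeR, adjusted p = 0.0135) and was lost without 481 (0.0679), 482 (0.0753), 483 (0.0821), 476 (0.0756), 477 (0.0806) or 478 (0.0972). The log2 fold change lay between -0.69 and -0.49 in these fits.

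Its paralog Clk1 (chr1:58410189-58424066, minus strand) had 86.1, 100.2, 90.3 and 102 CPM in mice 480 to 483 after DMSO. It had 79.9, 85.7 and 74.5 CPM in mice 476, 477 and 478 after ABT-263. The groups did not overlap, but mouse 477 came within 1 CPM of mouse 480. In edgeR the log2 fold change was -0.24 and its standard error 0.12, with an adjusted p of 0.173, short of a call. The difference between the changes of Clk1 and Clk4 was not tested.

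Srsf3, the smallest SR protein and a factor in splicing, mRNA export and the choice of poly(A) sites, followed the same order of groups without a call (chr17:29032628-29043373, plus strand). It had 134.5, 186, 153 and 134.6 CPM in mice 480 to 483 after DMSO. It had 116, 124 and 104 CPM in mice 476, 477 and 478 after ABT-263. All ABT-263-treated mice lay below all DMSO-treated mice, among which mouse 481 was the highest. The log2 fold change was -0.41 (standard error 0.16, edgeR, adjusted p = 0.0902), and the gene passed only when trends on transcript length and GC content were removed (adjusted p = 0.0421).

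The other 5 genes overlapped between groups. They were Srsf1 (chr11:88047373-88053755), Srsf2 (chr11:116849901-116853094), Srsf5 (chr12:80945504-80950507), Srsf6 (chr2:162931528-162937121) and Srsf7 (chr17:80200080-80207307). Srsf1, a founding member of the family, lay between 102.3 and 131 CPM in DMSO-treated mice and between 102.1 and 120 CPM in ABT-263-treated mice (log2 fold change -0.05, standard error 0.13). Srsf2, which also acts in transcription elongation, lay between 181 and 219 CPM in the former and between 166 and 207 CPM in the latter (log2 fold change -0.10, standard error 0.14). Srsf6, a regulator of alternative exons in skin and other epithelia, lay between 149 and 172 CPM in the former and between 133 and 161 CPM in the latter (log2 fold change -0.18, standard error 0.13). None of the 3 passed the threshold in edgeR, where the adjusted p was 0.811 for Srsf1, 0.650 for Srsf2 and 0.337 for Srsf6.

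Srsf5 and Srsf7 were the only members with a positive log2 fold change, and neither passed the threshold. Srsf5 lay between 137 and 178 CPM in DMSO-treated mice and had 146, 217 and 160 CPM in mice 476, 477 and 478 after ABT-263. Its log2 fold change was 0.23 (standard error 0.18, edgeR, adjusted p = 0.373), and mouse 477 was the highest of all mice. Srsf7, an SR protein with a zinc knuckle that binds RNA, lay between 69.6 and 91.3 CPM in DMSO-treated mice. In ABT-263-treated mice it lay between 82.0 and 84.7 CPM. Its log2 fold change was 0.09 (standard error 0.13, edgeR, adjusted p = 0.634).

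As a group, 3 of the 10 genes were called lower and 0 higher by edgeR, and by DESeq2 as well, where edgeR called 11.7% of all genes tested lower, 12.4% higher and 24.2% in either direction. Of the others, Srsf3 alone had an unadjusted p under 0.05 (0.0305, edgeR). The log2 fold change was negative in 8 of the 10, with a median of -0.21 beside 0.00 for all genes tested. In 5 of the 10 the groups did not overlap, each time with ABT-263-treated mice below, where 37.1% of all genes tested did not overlap, 18.4% with ABT-263-treated mice below and 18.7% above. The number called was 1 (Srsf11) without DMSO-treated mouse 482 or 483 or without ABT-263-treated mouse 478. In exact permutation tests of each gene over the 35 splits of the 7 mice (two-sided, 10 tests, unadjusted), Srsf3, Srsf11 and Son reached p = 0.0286, the smallest this design allows. Clk1 and Clk4 gave p = 0.0571 in the same exact test. Only a gene whose groups do not overlap can reach the smallest p, and the share of all genes reaching it was not computed.

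**Figure D2:**
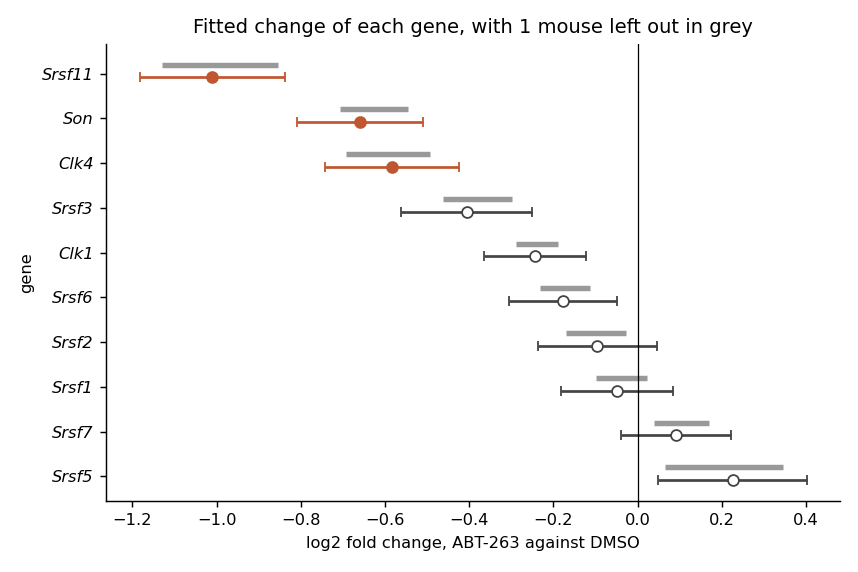
Log2 fold change of each gene, ABT-263 against DMSO, from edgeR, ordered by size. Points with bars are the estimate and its standard error from all 7 mice (filled orange, adjusted p under 0.05; open, not past it), and the grey bar above each spans the estimates with each mouse left out; Srsf11, Son and Clk4 lie between -1.01 and -0.58, and only the grey bar of Srsf1 crosses 0.

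Levels can be compared between genes only per length. Dividing CPM by the summed exon length of the gene in kilobases gave RPKM, and on this scale Srsf2 was the highest of the group in both treatments, at 65.8 ± 6.14 RPKM (SD, n = 4) after DMSO and 61.6 ± 7.34 RPKM (SD, n = 3) after ABT-263. Srsf5 (37.4 ± 4.89 RPKM, SD, n = 4) and Srsf6 (34.0 ± 2.21 RPKM, SD, n = 4) came next after DMSO and differed by less than the SD of Srsf5. Srsf11 (25.1 ± 2.31 RPKM, SD, n = 4) stood above Son (22.5 ± 1.46 RPKM, SD, n = 4) by slightly more than the SD of either. Srsf7, Srsf1 and Srsf3 followed, the last at 19.2 RPKM, with neighbours, Son included, closer than the larger of their SDs. Clk1 (11.6 ± 0.960 RPKM, SD, n = 4) and Clk4 (8.14 ± 1.47 RPKM, SD, n = 4) were the lowest. Srsf11 moved from rank 4 of the 10 after DMSO to rank 8 after ABT-263, at 12.5 ± 2.50 RPKM (SD, n = 3). It then lay near Son (14.2 ± 1.91 RPKM, SD, n = 3) and Srsf3 (14.5 ± 1.27 RPKM, SD, n = 3). Exon length here includes the exons of retained-intron transcripts, which lowers the RPKM of genes with many of them.

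All 10 genes have at least 1 retained-intron transcript in the annotation, as do 56.9% of the 14291 protein-coding genes with introns that were tested. Srsf11 has 11 such transcripts, Clk1 and Clk4 have 7 each, Srsf3 has 4, and Son has 2. The share of a gene's exon bases that lies inside an intron of its principal transcript was 66.9% for Srsf3, 65.2% for Clk4, 63.2% for Srsf11, 58.6% for Srsf5 and 55.6% for Clk1, beside a median of 18.3% over those protein-coding genes. It was 41.0% for Son, 35.8% for Srsf2, 35.5% for Srsf7, 26.7% for Srsf6 and 6.09% for Srsf1. Genes with a large share stood at both ends of the group, since Srsf11 had the lowest and Srsf5 the highest log2 fold change. Over all protein-coding genes, those with at least 1 retained-intron transcript were called higher in 13% and lower in 11.1% of cases, with a median log2 fold change of 0.03. Those with none were called higher in 13% and lower in 9.26%, with a median of 0.05. Those with at least 5, which include Srsf11, Clk1 and Clk4, were called higher in 10.4% and lower in 14.3%, with a median of -0.05. The differences between these classes were not tested.

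**Figure D3:**
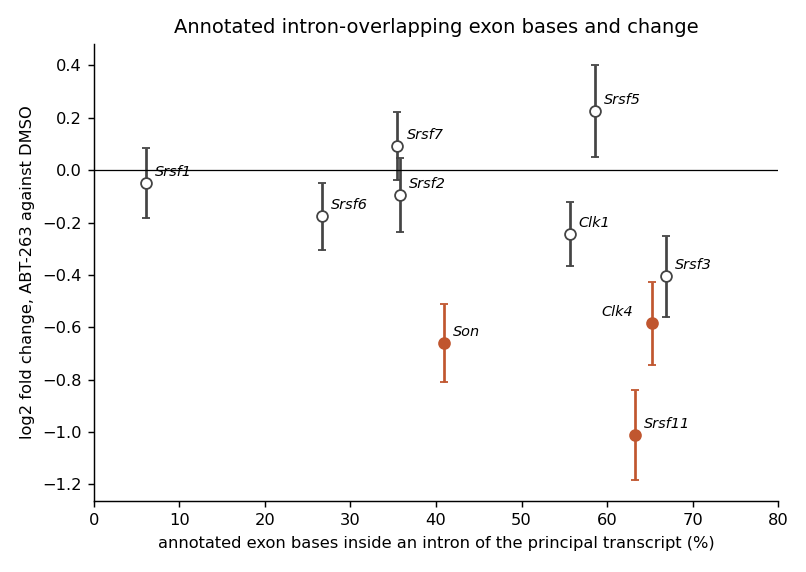
Share of annotated exon bases that lie inside an intron of the principal transcript (x axis, %, GENCODE M21) and log2 fold change from edgeR with its standard error (y axis) for the 10 genes. Filled orange points passed an adjusted p of 0.05; Srsf3, Clk4, Srsf11, Srsf5 and Clk1 lie at 55.6% or above and spread from -1.01 to 0.23 in log2 fold change.

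Some members share sequence with other annotated genes. A search of their principal transcripts found 7 copies that were at least 90% identical over at least 150 bases, belonging to Srsf3, Srsf5 and Srsf7. The authors counted only uniquely aligned read pairs, so pairs that match a member and a copy equally well are in neither count. Summing the counts of copies does not bring such pairs back. Gm9761, a processed pseudogene 99.6% identical to Srsf3 over 492 bases, had 13.7 ± 3.24 CPM after DMSO (SD, n = 4) and 20.9 ± 1.12 CPM after ABT-263 (SD, n = 3), and edgeR gave a log2 fold change of 0.61 with an adjusted p of 0.0607. Gm12966, a processed pseudogene 99% identical to Srsf5 over 810 bases, rose from 18.1 ± 4.80 CPM after DMSO (SD, n = 4) to 36.1 ± 6.84 CPM after ABT-263 (SD, n = 3), and edgeR gave a log2 fold change of 0.99 with an adjusted p of 0.0208. Their counts amounted to 13.5% of those of Srsf3 and 17.3% of those of Srsf5. Summed with its copies, Srsf3 had a log2 fold change of -0.28 (edgeR, adjusted p = 0.209) and Srsf5 one of 0.33 (adjusted p = 0.196). Both copies are named because of their identity to members, after their values were seen. Srsf2 shares 15.6% of its exon bases with Mettl23 and 9.74% with Mfsd11 on the opposite strand, and the authors counted on 1 strand.

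The promoters of the 3 genes called lower are shown as the 150 bases before the start site in RefSeq (GRCm38.p6), 5′ to 3′ on the strand of the gene, with matches to the searched motifs in capitals. That of Srsf11 lies at chr3:158036607-158036756 (minus strand), that of Son at chr16:91647674-91647823 (plus strand) and that of Clk4 at chr11:51262964-51263113 (plus strand). RefSeq lists a further start for Srsf11.

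Srsf11: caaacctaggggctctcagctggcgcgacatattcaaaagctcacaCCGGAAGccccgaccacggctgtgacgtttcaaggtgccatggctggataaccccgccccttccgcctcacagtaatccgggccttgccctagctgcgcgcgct
Son: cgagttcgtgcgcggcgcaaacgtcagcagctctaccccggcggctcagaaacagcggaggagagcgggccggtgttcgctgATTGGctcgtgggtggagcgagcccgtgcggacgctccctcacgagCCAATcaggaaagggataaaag
Clk4: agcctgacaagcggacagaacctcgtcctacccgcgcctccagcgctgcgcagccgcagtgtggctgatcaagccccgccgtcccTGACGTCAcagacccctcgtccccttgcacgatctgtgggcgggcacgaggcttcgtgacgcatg

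Motifs were searched on both strands from 250 bases before to 50 bases after the start in the 9 members with an entry (all but Clk1). A member was counted if any of its entries held the motif, whereas the percentages are over single entries, so these are unlike units. The cyclic AMP response element TGACGTCA was found in Clk4 and in 1.79% of all 32851 promoter entries. The ETS motif CCGGAAG was found in Srsf5, Srsf7 and Srsf11 and in 8.86% of all entries. The CCAAT box was found in Son, Srsf1, Srsf2 and Srsf3 and in 37.4% of all entries. The palindromic NRF1 motif was found in Srsf11, at its further start, and in 0.971% of all entries, and TATAAA was found in Srsf2 and Srsf3 and in 13.6% of all entries. The heat shock motif GAANNTTC was found in none of the 9 members and in 7.86% of all entries. The called genes shared none of these motifs.

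Other genes of the pathway were read from the same fit, as counts beside the 12.4% of all genes called higher and 11.7% called lower. Of 32 other SR and RS-domain proteins tested, 11 were called lower and 2 higher, and 19 did not pass (median log2 fold change -0.25). Rbm25, a regulator of splice site choice, fell by 1.43 on the log2 scale (edgeR, adjusted p = 0.00744), with 544 ± 42.2 CPM after DMSO (SD, n = 4) and 203 ± 56.6 CPM after ABT-263 (SD, n = 3). Luc7l3, linked to the U1 snRNP, fell by 1.30 (adjusted p = 0.00750), and Acin1, part of a splicing complex at exon junctions, by 0.86 (adjusted p = 0.00887). Scaf8 (log2 fold change 0.73, edgeR, adjusted p = 0.0126) and Cherp (0.47, adjusted p = 0.0267) were the 2 called higher. The log2 fold change was positive in 10 of the 32 and negative in 22. With 1 mouse left out, Rbm25, Luc7l3, Acin1 and Scaf8 passed in all 7 fits and Cherp in 3. Of the closest relatives, Srsf4 (log2 fold change -0.26), Srsf9 (0.10) and Srsf10 (-0.39, edgeR, adjusted p = 0.0538) did not pass. The number called was 6 without DMSO-treated mouse 482 or 483, and the removal of ABT-263-treated mouse 476 left 7 and that of mouse 478 left 4.

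Among 17 other kinases, phosphatases and transport factors of SR proteins, 5 were called lower and 1 higher. Clk2 had a log2 fold change of -0.12 (edgeR, adjusted p = 0.466) and Clk3 one of -0.15 (adjusted p = 0.331). Clk4 was thus the only CDC-like kinase past the threshold, but it passed in only 1 of the 7 fits with a mouse left out. The log2 fold changes of Clk1, Clk2, Clk3 and Clk4 were all negative, and differences between them were not tested. Srpk2 had a log2 fold change of -0.46 (edgeR, adjusted p = 0.0373), while Srpk1 did not pass (-0.67, adjusted p = 0.129). Srpk3, named after its values were seen, was called lower with the largest fall of the list (log2 fold change -0.92, adjusted p = 0.0478 in edgeR), although the groups overlapped, at 23.7 to 58.6 CPM in DMSO-treated mice and 18.7 to 25.6 CPM in ABT-263-treated mice. Dyrk1b (log2 fold change -0.61), Cdk11b (-0.65), and Tnpo3 (-0.50), which imports SR proteins into the nucleus, were also called lower, and Ppp1cc (0.55), a catalytic subunit of protein phosphatase 1, was called higher. The number called was 3 without DMSO-treated mouse 481, 2 without 482 or 483, again 2 when ABT-263-treated mouse 476 was left out, and 1 (Dyrk1b) without 478. Cdk11b passed in 6 of the 7 fits with a mouse left out, Tnpo3 in 3, Srpk2 in 2 and Ppp1cc in 0.

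The hnRNP proteins often oppose SR proteins at exons. Of 29 hnRNP and related genes, 3 were called higher and 0 lower by edgeR, with a median log2 fold change of 0.05. The share called higher, 10.3%, was near the 12.4% of all genes tested, of which 11.7% were called lower. The 3 were Hnrnpf, Hnrnph2 and Hnrnpll, with log2 fold changes of 0.84, 0.81 and 0.71. DESeq2 called 4 higher and 1 lower. Of the uncalled, Hnrnpk and Tardbp (negative log2 fold change) and Hnrnpd and Pcbp2 (positive) had an unadjusted p under 0.05 in edgeR. These were looked up after the values were seen. Hnrnpf and Hnrnph2 passed in all 7 fits with 1 mouse left out and Hnrnpll in 2. The difference between this list and the SR genes was not tested.

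Of 45 core spliceosome genes, 10 were called lower and 4 higher (median log2 fold change -0.26). Those with the smallest p were the snRNP proteins Snrpe (-1.06), Snrnp70 (-0.99) and Snrpd2 (-0.58) among the lower and Sf3b1 (0.46), Aqr (0.46) and Snrnp200 (0.52) among the higher. The number called was 7, 9, 2 and 4 without DMSO-treated mouse 480, 481, 482 and 483, whereas 2 were left when ABT-263-treated mouse 476 was omitted and 1 (Snrpe) when 478 was. Of 15 exon junction and decay factors, through which premature stop codons act, 5 were called lower and 1 higher. Upf3b fell by 1.34 and Rbm8a by 0.80 on the log2 scale, and Smg8 had a log2 fold change of 0.80. With mouse 482, 483 or 478 left out, 3 were called. Upf3b and Rbm8a passed in all 7 such fits and Smg8 in 3.

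Malat1, a long noncoding RNA of the speckles in which SR proteins gather, had 2418 ± 756 CPM after DMSO (SD, n = 4) and 701 ± 159.5 CPM after ABT-263 (SD, n = 3), and fell with an adjusted p of 0.00988 in edgeR (log2 fold change -1.79). Neat1, the scaffold of paraspeckles, had a log2 fold change of -0.44 (edgeR, adjusted p = 0.119). Ogt, which holds a well-known retained intron, had one of -0.61 (edgeR, adjusted p = 0.0132). Of the 6 genes in this list, 2 were called lower and 0 higher by edgeR and by DESeq2, and 3, all lower, had an unadjusted p under 0.05. Only Malat1 was called without ABT-263-treated mouse 478.

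**Figure D4:**
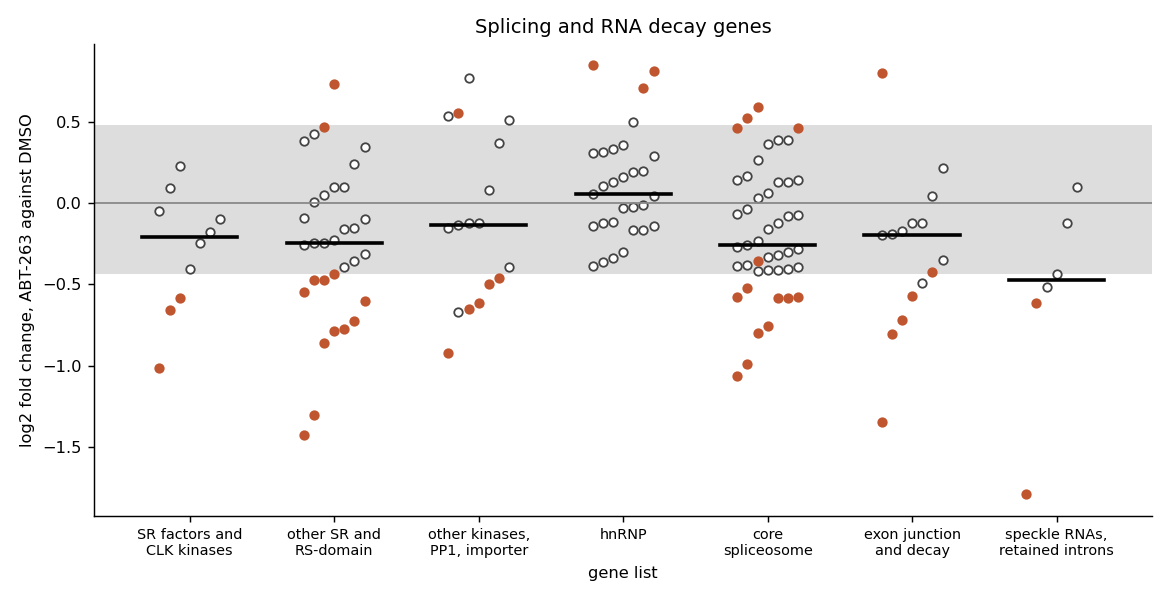
Log2 fold change, ABT-263 against DMSO, of each tested gene in the 7 lists (points; filled orange, adjusted p under 0.05 from edgeR) with the median of each list (black bar). The grey band and line give the middle 50% of all genes tested, from -0.43 to 0.48, and their median; called genes lie mostly below the band in each list but the hnRNP list, where 3 lie above it.

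The genes whose profile over the 7 mice lay closest to the mean of the 10 were Casc3, Arglu1, Mcts1, S100pbp and Cpsf6. Likeness was the root mean square difference of centred log2 CPM, which ran from 0.036 for Casc3 to 0.054 for Cpsf6. Among the members, Clk1 lay closest to that mean (0.060) and Srsf11 farthest from it (0.396). The closest pair of members was Srsf1 and Srsf2 (0.048).

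Markers of cell types also moved. The summed level of 5 skeletal muscle markers was 23485 to 50742 CPM in DMSO-treated mice and 16729 to 25805 CPM in ABT-263-treated mice, with 1 of 5 called lower. The sum of 4 neutrophil markers was 99.5 to 1820 CPM in the former group and 5095 to 8072 CPM in the latter, with 2 of 4 called higher. All 4 endothelial markers, 4 of 5 macrophage markers and 3 of 5 fibroblast markers were called higher. Of 4 melanocyte markers 1 was called lower, as was 1 of 4 Schwann cell markers, and 1 of 4 basal keratinocyte markers was called higher. None of the suprabasal keratinocyte, hair follicle, smooth muscle, adipocyte or T cell markers passed in edgeR, where 4 had an unadjusted p under 0.05, and DESeq2 called 1 hair follicle and 1 adipocyte marker. No marker was at 0 in all libraries. With no filter on low counts, 1 macrophage, 0 neutrophil and 0 melanocyte markers were called. Macrophage calls numbered 2 without mouse 480, 481 or 482, 0 without 483 and 1 without 476 or 478. Endothelial calls numbered 2 without mouse 482 or 478, and neutrophil calls 1 without 482, 483, 476 or 478. The melanocyte call was lost whichever mouse was left out, the skeletal muscle call without any mouse but 480, where 2 were called, and the basal keratinocyte call without 481, 482, 483, 477 or 478. Schwann cell calls numbered 2 without mouse 481. Their part in the levels of Srsf11, Son and Clk4 was not tested. When read pairs were drawn at random so that every library was as small as the smallest, the log2 fold changes of these 3 genes were -1.05, -0.66 and -0.58.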

How the data were processed

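RNA from the dorsal skin of 7 mice was sequenced, 1 library per mouse. The authors aligned reads to mm10 with STAR 2.7.9a and deposited raw counts of uniquely aligned proper pairs per Ensembl gene (featureCounts of Subread 1.6.2, same strand, mitochondrial genes left out). They also deposited log2-like values from the variance-stabilizing transformation of DESeq2 1.23.10, which served here as an alternative. Symbols and gene models came from GENCODE M21 (GRCm38), which holds 55190 of the 55450 identifiers and is not the Ensembl build the authors used, so exon lengths may differ. Mgea5 was read as Oga.

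In R 4.3.3, edgeR 4.0.16 (TMM, filterByExpr, robust glmQLFit) compared ABT-263 with DMSO, two-sided, with p-values adjusted by Benjamini-Hochberg over 17959 genes. The script was tested on 3 simulated data sets, each with 200 changed genes drawn from all genes tested. It recovered 13.4% to 17.9% of 2-fold changes, 67.2% to 71.6% of 4-fold and 89.4% to 93.9% of 8-fold changes. Of its calls, 5.79% to 8.46% were false. Only 200 of 17959 genes were changed there, whereas 24.2% were called in the data, so these shares need not hold for the data. Alternatives were DESeq2 1.42.0, its size factors, other filters, protein-coding genes, length and GC trends (mgcv 1.9.3), thinned counts, limma 3.58.1 and each mouse left out; summing copies (BLAST 2.17.0) was added after seeing the data. CPM are from these counts, and log2 CPM used a prior count of 2. Depth is given by the total counts.

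Named genes were the 10 members, 7 close relatives, Malat1, Neat1, up to 3 genes per direction and list with the smallest p among those called, and the 5 nearest profiles; 1 gene under this rule is not reported here. Members and lists were chosen with earlier results of these data known.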

Additional observations from a re-analysis of the deposited data

Results flagged for a closer look

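Dixon's ratio, the gap of the extreme mouse to its neighbour over the range of the group, was computed within the DMSO group (n = 4) for 70 quantities. It was above the 95% limit for 4, where chance alone would give 3.5. Clk3 was lower in mouse 482 (78.3 CPM) than in the other mice (87.4 to 87.8 CPM, ratio 0.961). The summed level of the other SR and RS-domain genes was lower in mouse 480 (3112 CPM) than in the others (3570.1 to 3608 CPM, ratio 0.924), still above the highest ABT-263-treated mouse (2503 CPM). Basal keratinocyte markers were highest in mouse 480 (29635 CPM, ratio 0.843). Hair follicle markers summed to 2098 CPM in mouse 481 and to 19.5 to 22.6 CPM in the others (ratio 0.998). None of the 10 SR and CLK genes exceeded the limit.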

How the results depend on the processing

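Of the 10 genes, 3 were called under every alternative that kept all 7 mice except the removal of length and GC trends, which added Srsf3 (4 called). Srsf11 was called under all 15 alternatives, Son under 12 and Clk4 under 9, each time lower, and all losses came from leaving out a mouse. Srsf1 and Srsf7, not called, changed sign in 2 and 1 of the 15. With each mouse left out in turn, 1 to 3 of the 10 genes were called, and 1735 to 4169 of all genes. In the same fits 4 to 14 of the other SR and RS-domain genes, 1 to 6 of the kinase list, 2 to 3 hnRNP genes, 1 to 12 core spliceosome genes, 3 to 7 decay factors and 1 to 2 of the speckle and retained-intron list were called. With every gene with a count tested, 2 genes of the kinase list and 8 of the core spliceosome were called. DESeq2 called 5 hnRNP genes. With protein-coding genes only, 1 gene of the speckle and retained-intron list was called, since Malat1 was then not in the table. The causes of the other changes were not tested. The exact permutation tests gave the same side of 0.05 with DESeq2's size factors. No paired analysis was possible because the labels give the groups no shared replicate numbers. Summing members with their near-identical copies, an alternative chosen after seeing the data, left 3 called. Standard errors of 0.12 to 0.18 on the log2 scale limited which changes could be called in the 10 genes.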
